A study of Drosophila melanogaster with 8 samples.

Results

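Gene expression was compared between Antp CRISPR and control wing discs of Drosophila melanogaster using only the 4 libraries that the labels mark as not used by the submitters. These are CRISPR 3 and CRISPR 4 on one side and wt 1 and wt 4 on the other, 4 of the 8 libraries of the study, and they are all the libraries that carry that label. The CRISPR larvae carried the driver 1151 and its CRISPR construct against Antp (genotype 1151>AntpCRISPR), and the controls came from a cross of the driver 1151 to w1118. All larvae were kept at 29 °C and dissected as wandering larvae about 5 days after egg lay, and each library was made from total RNA of whole discs. The study concerns Antp in the adult muscle precursors (AMPs) of the disc. Neither the number of discs in a library nor separate crosses for the libraries are given in the labels. The p-values below therefore reflect variation among libraries that could be technical. They give no reason for leaving the 4 libraries out. The control cross carries no CRISPR construct, so genetic background and Antp targeting cannot be told apart. The whole disc was sequenced, so fewer cells of a type and less RNA per cell cannot be told apart either. The other 4 libraries (CRISPR 1, CRISPR 2, wt 2 and wt 3, marked as used) share no library with this comparison. Levels in them are also given for each gene that passed the test and for a part of the other named genes.

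The wing disc is a folded epithelium that forms the wing and the body wall of the thorax, and the AMPs are mesodermal progenitors that lie on it and later build the flight muscles. Antp is a Hox gene, encoding a homeodomain transcription factor that gives thoracic segments their identity. At the wandering stage, pulses of the steroid hormone ecdysone start the passage to the pupa and change the expression of many genes.

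Depth was similar in the 4 libraries, from 42497067 gene reads in CRISPR 4 to 44926975 in CRISPR 3. Levels are given as CPM (counts per 1000000 gene reads, scaled with TMM factors over the 8 libraries). The spread within genotypes was wider here than among the used libraries, with a biological coefficient of variation of 29.8% against 15.3%. The used controls wt 2 and wt 3 stood apart from every other pair of libraries of a genotype in how alike they were: the chi-square of their counts, divided by its degrees of freedom, was 7.83, against 84.2 to 299 in the other 11 pairs. They still differed by more than counting error. Whether they are separate samples is not stated in the labels, so results that rest on them are also given with their counts summed as 1 library, an alternative chosen after seeing the data, with which the coefficient of variation of the used set was 24.6%. Wing and AMP markers were present in every library: the wing gene vg stood at 241 and 245 CPM in CRISPR 3 and CRISPR 4 and at 238 CPM in both wt 1 and wt 4, and the AMP gene twi at 23.5 and 17.6 CPM against 25.7 and 18.7 CPM. The midgut marker list, summed over its members, was 1201 and 2.69 CPM in CRISPR 3 and CRISPR 4, against 4.61 and 2.68 CPM in wt 1 and wt 4, so gut transcripts were high in CRISPR 3 alone among the 4. In the used set the sum was 4.28 and 13.4 CPM in CRISPR 1 and CRISPR 2, against 2156 and 2177 CPM in wt 2 and wt 3, and fat body markers summed to 30.4 and 65.1 CPM against 528 and 539 CPM.

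Antp was measured first (FBgn0260642, 3R 6896253 to 6999228, dm6 coordinates, sharing exon sequence with CG46458). Its level was 145 CPM in CRISPR 3 and 148 CPM in CRISPR 4, against 195 and 121 CPM in wt 1 and wt 4. Both CRISPR libraries lay between the control libraries. The log2 change was -0.11 (SE 0.29, adjusted p = 0.9999 in edgeR), and a two-sided exact permutation test gave p = 1, where 0.333 is the smallest that 2 libraries against 2 allow. The sign of the change rested on wt 1, without which it was 0.28. The Antp count therefore gave no check of the genotype labels in these libraries. In CRISPR 1 and CRISPR 2 Antp was at 211 and 166 CPM, against 137 and 140 CPM in wt 2 and wt 3. It was thus higher in CRISPR there without overlap (log2 change 0.40, adjusted p = 0.135 in edgeR). The difference between the sets had an adjusted p of 0.654.

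The comparison asked which genes differ between genotypes in these libraries. The differences that passed the test were a small set of genes that were all but silent in one genotype. In edgeR's quasi-likelihood test with Benjamini-Hochberg adjustment, 8 of 9272 genes passed an adjusted p of 0.05 (0.0863%), of which 7 rose in CRISPR (0.0755%) and 1 fell (0.0108%). At an unadjusted p under 0.05 there were 269 genes (2.9%), with 118 higher (1.27%) and 151 lower (1.63%) in CRISPR. A gene was called near on/off when its lowest library in the higher genotype was at least 16 times its highest library in the other, with 0.1 CPM added to each level, and stood at 1 CPM or more. By this definition 7 genes were on in CRISPR 3 and CRISPR 4 (0.0755%) and 1 was off (0.0108%). These were the same 8 genes that passed the test, and 0 graded changes passed.

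**Figure D1:**
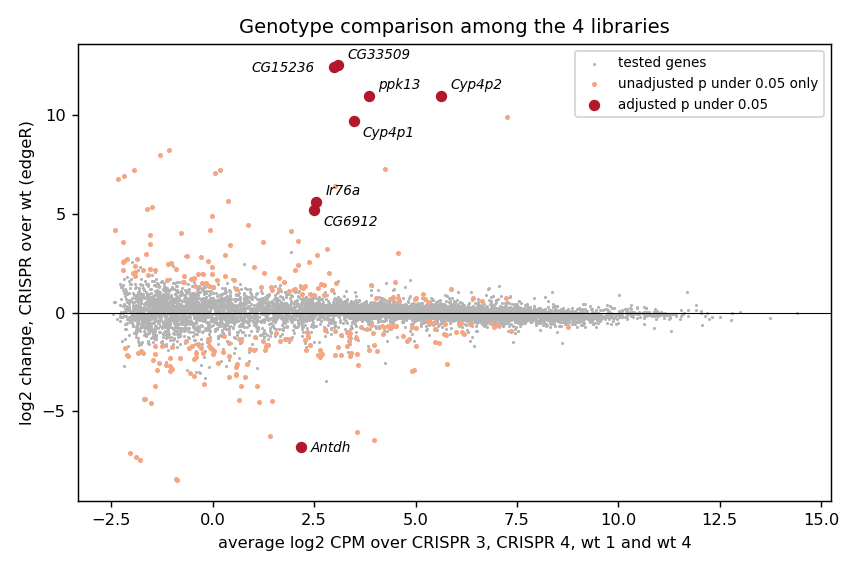
Log2 change between CRISPR (CRISPR 3 and CRISPR 4) and wt (wt 1 and wt 4) for each of the 9272 tested genes, against its average log2 CPM over the 4 libraries. Dark points mark the 8 genes with an adjusted p under 0.05, 7 above the zero line and 1 (Antdh) below it, and pale points mark genes that passed only the unadjusted threshold.

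The gene with the highest level in CRISPR 3 and CRISPR 4 among these was Cyp4p2, which forms a neighbouring pair with Cyp4p1, also a cytochrome P450 gene. P450 enzymes oxidise fatty acids, hormones and foreign compounds. Cyp4p2 (FBgn0033395, 2R 9237512 to 9239831) stood at 94.2 CPM in CRISPR 3 and 104 CPM in CRISPR 4, against 0.0499 and 0.0443 CPM in wt 1 and wt 4. The control levels are 2 reads in each library. The ratio of summed reads was 2107 (95% counting interval 823 to 7736, which covers counting error only), and the fitted log2 change was 10.96 (SE 0.32, adjusted p = 1.89e-04). Its neighbour Cyp4p1 (FBgn0015037, 2R 9240041 to 9242139) begins 209 bases beyond it on the same strand and was at 25.01 and 19.4 CPM in CRISPR 3 and CRISPR 4, against 0.0249 and 0.0222 CPM in wt 1 and wt 4. The control pair holds 2 reads in all, giving a ratio of 949 (95% counting interval 262 to 7845, adjusted p = 0.00235 in edgeR). Per kb of exon, Cyp4p2 was at 53.02 and 58.5 CPM in CRISPR 3 and CRISPR 4 and Cyp4p1 at 14.9 and 11.5 CPM, so the upstream gene of the pair was the higher one in both libraries.

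The next genes were far lower than the pair in CRISPR 3 and CRISPR 4. Cyp4p3, the next P450 gene of the cluster, had 0.366 and 0.184 CPM in CRISPR 3 and CRISPR 4 and 0 and 0.0886 CPM in wt 1 and wt 4, below the filter for testing. The gene hig, whose intron region spans all 3 P450 genes on the other strand and which encodes a secreted protein of the synaptic cleft, was at 2.80 and 1.40 CPM in CRISPR 3 and CRISPR 4, against 0.200 and 0.355 CPM in wt 1 and wt 4. The log2 change of hig was 2.90 with an adjusted p of 0.590, so it did not pass. Beyond the cluster, Pkn stood at 190 and 150 CPM against 229 and 170 CPM in the controls. Among the whole list of P450 and glutathione S-transferase genes, 2 of 43 tested members rose, the same Cyp4p pair, and 0 fell, and the list's median log2 change was -0.00077, against -0.0042 over all genes. The list members next in order of p were Cyp6a14 (at 0.452 and 0.667 CPM in CRISPR 3 and CRISPR 4, against 0 and 0.0665 CPM in the controls) and the transferase gene GstT3 (at 7.91 and 10.5 CPM, against 2.22 and 4.57 CPM), with adjusted p-values of 0.9999.

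A second neighbouring pair lies on 2L. The gene ppk13 (FBgn0053508, 2L 21086790 to 21088751) belongs to the pickpocket family of sodium channel subunits related to epithelial sodium channels. Its level was 29.6 CPM in CRISPR 3 and 28.1 CPM in CRISPR 4, against 0.0249 CPM in wt 1, which is 1 read, and 0 in wt 4. The ratio was 2460 (95% counting interval 441 to 97201, adjusted p = 0.00249 in edgeR). CG33509 (FBgn0053509, 2L 21084605 to 21086506) ends 283 bases from ppk13 on the same strand and stood at 17.0 CPM in both CRISPR libraries and at 0 in both controls. Against a floor of 3 counts over the control pair it was at least 483-fold higher in CRISPR (adjusted p = 0.00929). The genes on either side, CG33510 and CG9259, were below 0.4 CPM in all 4 libraries, with CG33510 at 0.108 and 0.207 CPM in CRISPR 3 and CRISPR 4 against 0.0249 and 0 CPM in wt 1 and wt 4, and CG9259 at 0.323 and 0.299 CPM against 0.0499 and 0 CPM.

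The remaining 3 genes that rose lie alone. Ir76a (FBgn0260874, 3L 19799278 to 19803427) encodes an ionotropic receptor of the family that detects odours in the antenna. It stood at 11.6 and 11.2 CPM in CRISPR 3 and CRISPR 4, against 0.249 and 0.222 CPM in wt 1 and wt 4 (log2 change 5.58, SE 0.40, adjusted p = 0.00973). Its exons overlap those of CG14102 on the opposite strand, and since the strand setting of the counting is not given, reads of the pair cannot be separated with certainty. CG14102 itself was at 8.77 and 8.70 CPM against 3.77 and 5.54 CPM (log2 change 0.90, adjusted p = 0.9999). Its other neighbours TORIP and Ccdc58 had log2 changes of -0.31 and 0.11.

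CG15236 (FBgn0033108, 2R 6828356 to 6838360, overlapping CG9445 and mir-4976 on the opposite strand) was at 17.9 and 13.9 CPM in CRISPR 3 and CRISPR 4 and at 0 in both controls. That is at least 453-fold higher in CRISPR against the 3-count floor (adjusted p = 0.00973). CG34215, which lies inside its span on the other strand, had 0.323 and 0.529 CPM in CRISPR 3 and CRISPR 4 and 0 in both controls. The gene koi, which lies 10157 bases before it, stood at 147 and 146 CPM against 184 and 136 CPM. CG6912 (FBgn0038290, 3R 15135138 to 15137004) was at 11.1 and 10.8 CPM in CRISPR 3 and CRISPR 4, against 0.274 and 0.310 CPM in wt 1 and wt 4 (log2 change 5.21, SE 0.40, adjusted p = 0.0105). It shares exon sequence with the noncoding gene asRNA:CR45600, which was at 4.65 and 3.86 CPM against 0.324 and 0.377 CPM (log2 change 3.59, adjusted p = 0.144). Reads of these overlapping genes are uncertain in the same way, and CG6966, farther along the chromosome, had a log2 change of -0.079.

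**Figure D2:**
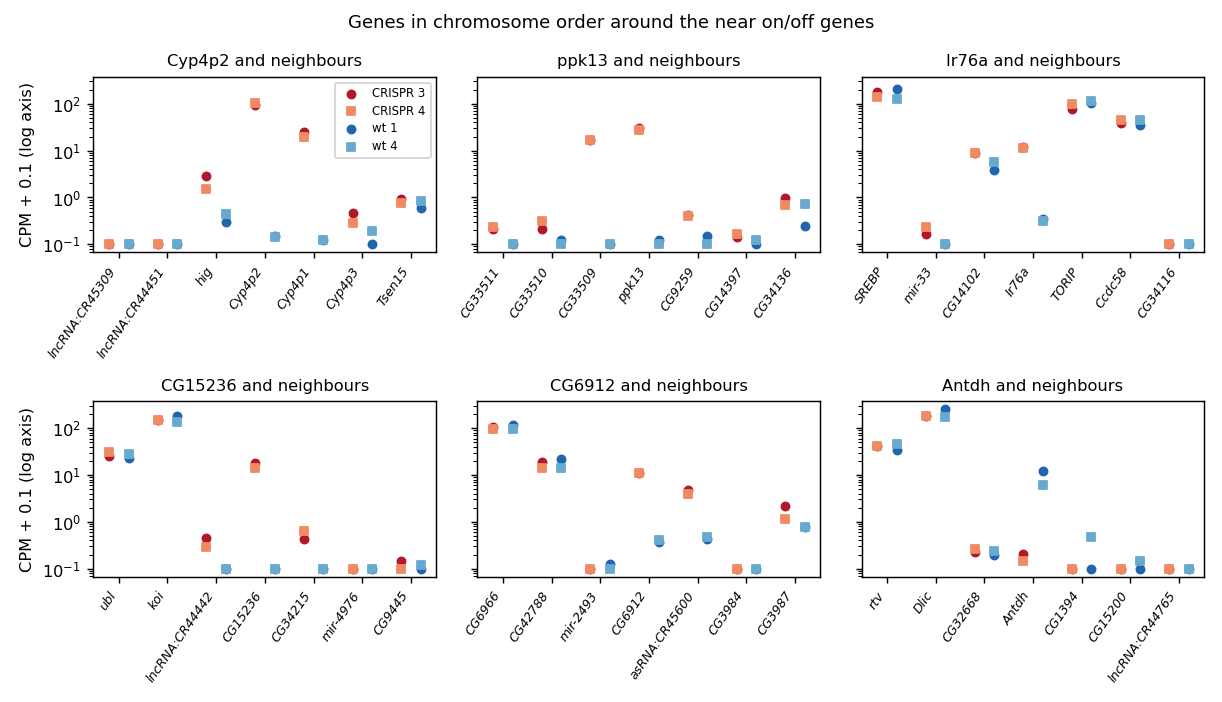
Levels (CPM + 0.1, log axis) of the genes that surround each near on/off gene, in chromosome order, in CRISPR 3 and CRISPR 4 (red and orange, drawn to the left) and in wt 1 and wt 4 (blue, drawn to the right). The 7 genes that were on in CRISPR stand apart from most neighbours, which are low in both genotypes or at like levels in both. Some neighbours, among them asRNA:CR45600, hig, CG34215 and CG9259, lie higher in CRISPR without passing the test.

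The gene that fell was Antdh (FBgn0026268, X 11168030 to 11169058), a short-chain dehydrogenase gene named for its expression in the antenna. It was at 0.108 CPM in CRISPR 3 and 0.0460 CPM in CRISPR 4, against 11.998 and 5.92 CPM in wt 1 and wt 4. The CRISPR pair holds 7 reads and the control pair 748, so the ratio of wt to CRISPR was 113 (95% counting interval 54.4 to 281). The log2 change was -6.80 (SE 0.68, adjusted p = 0.0475). The call sits close to the threshold: it was lost with limma-voom (adjusted p = 0.136), with RLE scaling (0.0576), without CRISPR 3 (0.0710) and without CRISPR 4 (0.0830), and the level stayed low in CRISPR in each. Its expressed neighbours Dlic and rtv had log2 changes of -0.25 and 0.028.

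The 8 genes were then read in the 4 libraries marked as used. Antdh showed the same difference there, with 0 CPM in CRISPR 1 and 0.0254 CPM in CRISPR 2 (1 read in the pair), against 5.01 and 5.05 CPM in wt 2 and wt 3. Its adjusted p in that comparison was 0.0103 in edgeR, and 0.0546 with wt 2 and wt 3 summed as 1 library, so the call there rests on counting them as 2. In the used set 264 of 9711 genes were called (2.72%), 37 higher (0.381%) and 227 lower (2.34%), and 42 with the summed library, all lower in CRISPR. Gut and fat body markers moved with that comparison, as given above, and their part in its calls was not tested. The 7 genes that were on in CRISPR 3 and CRISPR 4 split the other CRISPR libraries. Cyp4p2 was at 0.156 CPM in CRISPR 1 and 116 CPM in CRISPR 2, against 0.201 and 0.417 CPM in wt 2 and wt 3. Cyp4p1 was at 0.0312 CPM in CRISPR 1 and 36.4 CPM in CRISPR 2, against 0.161 and 0.0878 CPM in wt 2 and wt 3. The same split was seen at the other places, so that CRISPR 2 was on and CRISPR 1 was off.

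For ppk13 the level was 0 in CRISPR 1 and 55.8 CPM in CRISPR 2, against 0.0805 and 0.0439 CPM in wt 2 and wt 3, and for CG33509 it was 0 and 31.2 CPM against 0.0402 and 0.0659 CPM. Both members of that pair thus stood higher in CRISPR 2 than in either CRISPR library compared here. Ir76a was at 0.281 CPM in CRISPR 1 and 10.2 CPM in CRISPR 2, against 0.483 and 0.439 CPM in wt 2 and wt 3. CG15236 was at 0.0625 and 20.8 CPM against 0.463 and 0.790 CPM, and CG6912 at 0.0937 and 8.92 CPM against 0.965 and 0.966 CPM. Over the 7 genes, CRISPR 2 was between 8.92 and 116 CPM, CRISPR 1 was at 0.281 CPM or less, and the highest of the 4 control libraries was 0.966 CPM. CRISPR 1 was within or below the range of the control libraries for 7 of 7.

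**Figure D3:**
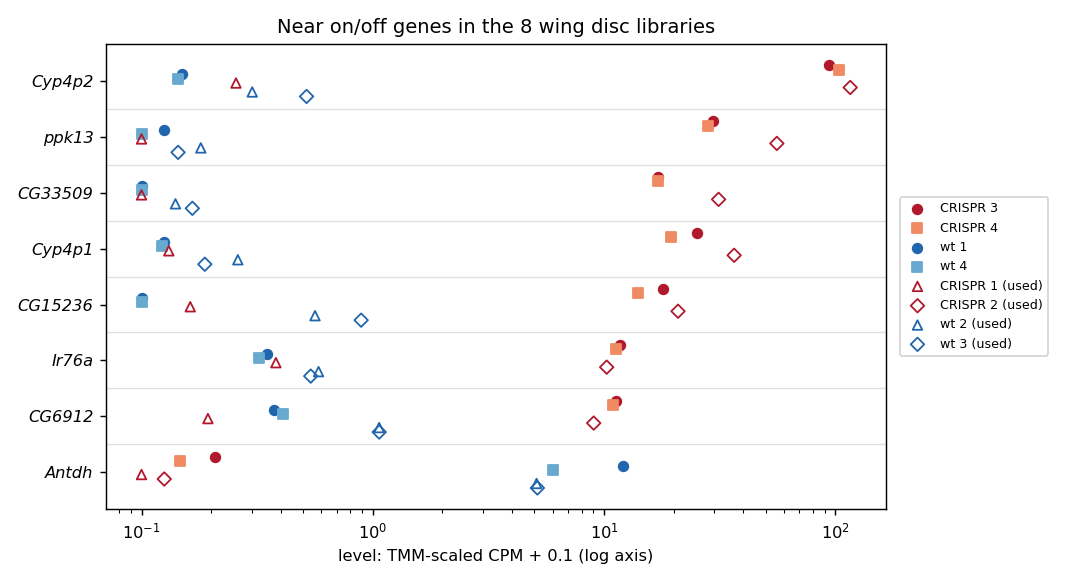
Level of each near on/off gene (CPM + 0.1, log axis) in all 8 libraries. Filled symbols are the 4 libraries marked not used (CRISPR 3, CRISPR 4, wt 1 and wt 4) and open symbols the 4 marked used. For the upper 7 genes CRISPR 1 lies with the control libraries and CRISPR 2 with CRISPR 3 and CRISPR 4, while for Antdh all 4 CRISPR libraries lie to the left of all 4 control libraries.

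With 1 library on and 1 off, none of the 7 passed among the used libraries. The adjusted p was 0.214 for Cyp4p2, 0.278 for Ir76a, 0.314 for CG15236 and 0.471 for CG6912, and Cyp4p1, ppk13 and CG33509 did not pass the filter on low counts in that set. A test of the difference in genotype effect between the sets passed for 0 of 10094 genes in edgeR (832 at an unadjusted p under 0.05, 8.24%), and for the 8 genes its adjusted p ran from 0.639 to 0.904. With wt 2 and wt 3 summed it also passed for 0 genes (368 unadjusted). So the 7 genes are not shown to respond differently in the sets. Taking the spread from all 8 libraries, the comparison of CRISPR 3 and CRISPR 4 with wt 1 and wt 4 called 2 genes, of which 1 was among the 8 (Antdh), and 0 when wt 2 and wt 3 were summed. With the replicate number as a block in the fit over 8 libraries it called 0, with an adjusted p of 0.999 for each of the 8, and the log2 change was 9.97 for Cyp4p2 and -7.22 for Antdh.

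The number 4 is the only one that both genotypes share among these libraries. Within it, CRISPR 4 exceeded wt 4 by 4.73 (CG6912) to 9.49 (Cyp4p2) on the log2(CPM + 0.1) scale over the 7 genes, and CRISPR 3 exceeded wt 1 by 4.91 to 9.30. For Antdh the differences were -5.36 and -5.86. The on/off definition fixes the direction in both pairs, so these values show only the size.

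Genes just short of the 16-fold gap numbered 5, with gaps of 8 to 16 and CRISPR higher in each, and are given as a description. CG7173 (FBgn0037099, 3L 21555373 to 21558226) was at 7.78 and 6.56 CPM in CRISPR 3 and CRISPR 4, against 0.399 and 0.421 CPM in wt 1 and wt 4, with a log2 change of 4.11 and an adjusted p of 0.0534. CG30054 was at 2.11 and 2.78 CPM against 0.0249 and 0.0665 CPM, and sordd2 at 2.50 and 1.43 CPM against 0.0249 and 0 CPM. These 3 genes were higher in all 4 CRISPR libraries than in all 4 controls. CG7173 stood at 4.84 and 5.06 CPM in CRISPR 1 and CRISPR 2 (0.684 and 0.527 CPM in wt 2 and wt 3), CG30054 at 4.59 and 2.44 CPM (0.282 and 0.198 CPM), and sordd2 at 11.8 and 3.25 CPM (0.0201 and 0 CPM). The other 2 genes, CG5282 and asRNA:CR45600, followed the split of the 7: CG5282 was at 2.69 and 1.59 CPM in CRISPR 3 and CRISPR 4 and at 0 and 2.24 CPM in CRISPR 1 and CRISPR 2, with 0 and 0.0222 CPM in wt 1 and wt 4.

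A fit over all 8 libraries with use status as a term gave each gene a single value over both sets. It called 7 of 9255 genes (0.0756%), of which 5 rose in CRISPR (0.054%) and 2 fell (0.0216%). All 7 had every CRISPR library on one side of every control, as had 159 of the 9272 genes tested here with CRISPR higher (1.71%) and 111 with CRISPR lower (1.2%). The genes that rose were CG7173 (log2 change 3.56, adjusted p = 0.00825), CG30054 (4.54, 0.0232), sordd2, CR44383, which lies beside sordd2 on X, and CG12592 (2.16, 0.0232). Those that fell were Antdh (-7.21, adjusted p = 0.00534) and lncRNA:CR44185, which had 0 reads in CRISPR 3 and CRISPR 4 and 1.40 and 0.576 CPM in wt 1 and wt 4. With wt 2 and wt 3 summed as 1 library the fit called 2 genes, Antdh (adjusted p = 0.0308) and CG7173 (0.0381), and the other 5 had adjusted p-values from 0.125 to 0.167. Of these 7, Antdh alone was also called among the 4 libraries marked not used, where CG12592 stood at 4.16 and 3.38 CPM in CRISPR, against 1.12 and 0.754 CPM in wt. The sets of near on/off genes hardly met: the used libraries held 62 such genes (1 on, 0.0103%, and 61 off in CRISPR, 0.628%), and the gene in common, Antdh, is 12.5% of the 8 and 1.61% of the 62. The gut and fat body markers that were high in wt 2 and wt 3 go with those 61, and their part was not tested.

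Graded changes are the differences short of on/off. None passed the adjusted test in edgeR, and they are described by the libraries alone. Over the tested genes the log2 change correlated with exonic length at -0.24 (Spearman). Levels relative to the median of the 8 libraries correlated with exonic length at -0.089 in CRISPR 3 and -0.48 in CRISPR 4. The values were 0.19 in wt 1 and -0.40 in wt 4. The part of gene length in the graded changes was not tested. Of the 9272 tested genes, 1226 (13.2%) had both CRISPR libraries above both controls and 1036 (11.2%) had both below. When genes with an unadjusted p under 0.05 and a mean log2 CPM of 1 or more were kept, 50 graded genes stood higher in CRISPR, by a median of 2.34-fold, and 80 stood lower, by a median of 2.28-fold. In the used libraries 27 of the 50 and 41 of the 80 had the same sign of change, where among all genes at these levels the share with the same sign was 46.8% for those higher here and 28.6% for those lower. All 8 libraries were separated in the same direction for 14 of the 50 and 18 of the 80. These genes were kept only without overlap here, which fixed the order within 4 of the 8. Among all tested genes without overlap here, 159 of the 1226 higher and 111 of the 1036 lower in CRISPR were so separated.

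Among graded genes with a mean log2 CPM of 1 or more, the smallest p after that of CG7173 belonged to cac, encoding the pore subunit of the synaptic calcium channel, at 8.62 and 12.2 CPM in CRISPR 3 and CRISPR 4, against 1.30 and 1.48 CPM in wt 1 and wt 4 (log2 change 2.90, adjusted p = 0.144). In the used libraries cac was at 0.437 CPM in CRISPR 1 and 62.1 CPM in CRISPR 2, against 2.31 and 2.46 CPM in wt 2 and wt 3, which again set CRISPR 1 below CRISPR 2. Obp56a, an odorant-binding protein gene, was at 32.01 and 35.7 CPM against 11.0 and 11.8 CPM here, and at 9.56 and 20.7 CPM against 31.0 and 28.9 CPM among the used libraries. The groups did not overlap in either set and stood in opposite order, with an adjusted p of 0.265 for the difference between sets. The photolyase gene phr, which repairs ultraviolet damage in DNA and overlaps Prosalpha1, was at 46.6 and 49.0 CPM against 27.7 and 21.9 CPM here and at 20.7 and 51.9 CPM against 18.0 and 17.7 CPM in the used set. Mrp5, an ABC transporter gene, was at 13.6 and 11.8 CPM against 0.599 and 2.13 CPM here, and at 0.999 and 8.03 CPM against 10.1 and 9.24 CPM in the used set, again in opposite order without overlap (adjusted p = 0.437 for the difference). The others named higher in CRISPR were asRNA:CR45600, swi2, CG12592, CG1909 and CG14082, with log2 changes from 1.23 (CG14082) to 3.59 (asRNA:CR45600). In the used set CG12592 was again higher in CRISPR without overlap, while the groups overlapped for the others.

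Among graded genes lower in CRISPR, the larval cuticle protein gene Lcp4 had the smallest p. It was at 4.83 and 10.01 CPM in CRISPR 3 and CRISPR 4, against 49.2 and 61.2 CPM in wt 1 and wt 4 (log2 change -2.90, SE 0.38, adjusted p = 0.144). In the used set the controls were alike, at 60.9 and 60.6 CPM, but CRISPR 1 was at 14.9 CPM and CRISPR 2 at 110 CPM. The cuticle list as a whole had 0 of 19 tested members called, with 15 lower and 4 higher in CRISPR, a median log2 change of -0.49 and 3 members lower at an unadjusted p under 0.05 (1.63% over all genes), namely Lcp4, Lcp2 and Lcp1. Without wt 1 the median was -0.17. The receptor tyrosine kinase gene Alk was at 5.08 and 4.14 CPM in CRISPR 3 and CRISPR 4, against 17.6 and 12.4 CPM in the controls. In the used set Alk overlapped, at 14.2 and 6.94 CPM in CRISPR against 13.3 and 13.1 CPM in wt. The RNA-binding protein gene tut was at 13.6 and 18.1 CPM in CRISPR 3 and CRISPR 4 and 19.5 and 14.7 CPM in CRISPR 1 and CRISPR 2, against 36.1 and 35.8 CPM in wt 1 and wt 4 and 31.5 and 29.6 CPM in wt 2 and wt 3, so all 4 CRISPR libraries lay below all 4 controls (adjusted p = 0.0622 in the fit over all 8). CG11370, Lcp9 and nrm had log2 changes of -1.09, -4.47 and -1.35 and adjusted p-values from 0.423 to 0.529. In the used set CG11370 was at 36.8 and 56.9 CPM in CRISPR, against 32.7 and 31.4 CPM in wt. That is the opposite order without overlap (adjusted p = 0.265 for the difference between sets). Lcp9 (0.531 and 11.5 CPM against 4.87 and 5.05 CPM) and nrm (11.6 and 24.6 CPM against 24.3 and 24.5 CPM) overlapped there.

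**Figure D4:**
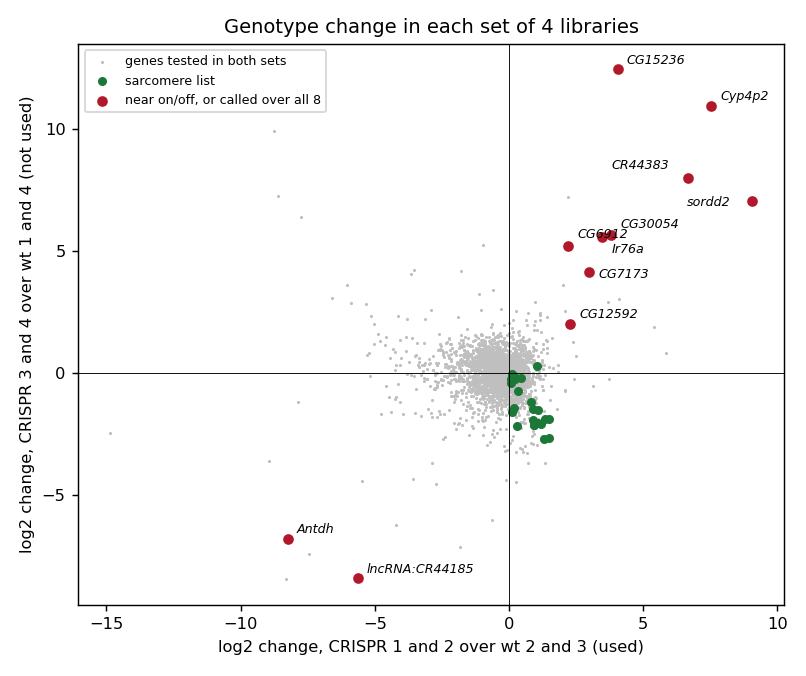
Log2 change of CRISPR 3 and CRISPR 4 over wt 1 and wt 4 (vertical) against that of CRISPR 1 and CRISPR 2 over wt 2 and wt 3 (horizontal) for the 9044 genes tested in both sets. Large points mark near on/off genes and genes called over all 8 libraries. Sarcomere genes (green) lie mostly below the horizontal line and to the right of the vertical one. Cyp4p1, ppk13 and CG33509 were not tested in the used set and are not drawn.

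Sarcomere genes, which encode the contractile machinery of the muscle that AMPs build, stood lower as a group without any member passing the adjusted test. Of 24 tested members 0 were called and 23 had a lower fitted level in CRISPR. Both CRISPR libraries lay below both controls for 16, where all genes gave 11.2%. At an unadjusted p under 0.05, 14 were lower, where all genes gave 1.63%. The median log2 change was -1.52, against -0.0042 over all genes tested. Mlc2, a myosin light chain gene, was at 19.6 and 26.9 CPM in CRISPR 3 and CRISPR 4, against 76.3 and 54.6 CPM in wt 1 and wt 4 (log2 change -1.50, adjusted p = 0.425). The actin gene Act57B was at 21.5 and 27.7 CPM against 86.6 and 55.5 CPM, and the paramyosin gene Prm at 1.66 and 3.17 CPM against 10.4 CPM in both controls. The muscle myosin heavy chain gene Mhc was at 2.33 and 4.19 CPM, against 34.5 and 6.89 CPM in wt 1 and wt 4, so its controls were far apart. Tm2, Mlc1 and TpnC47D had log2 changes of -2.15, -2.15 and -2.73, while Strn-Mlck, a titin-related kinase gene, was the member with a higher fitted level in CRISPR (0.28).

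The direction was not seen in the used libraries, where the median of the same list was 0.86. The mean log2(CPM + 0.1) of the 24 genes was 3.45 in CRISPR 3 and 3.77 in CRISPR 4, against 5.04 in wt 1 and 4.60 in wt 4. It was 4.49 in CRISPR 1 and 6.41 in CRISPR 2, against 5.15 in wt 2 and 5.18 in wt 3, so that the 4 CRISPR libraries spanned a wider range than the 4 controls. CRISPR 2 was the highest of all 8 libraries for 20 of the 24 genes, and CRISPR 1 lay below both wt 2 and wt 3 for 16. The test of the difference between the sets passed for 0 of the 24. At an unadjusted p under 0.05 that test gave 9 of the 24, where all genes gave 8.24%. The list's median remained negative without each library in turn, from -1.83 without CRISPR 4 to -1.20 without wt 1. 

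**Figure D5:**
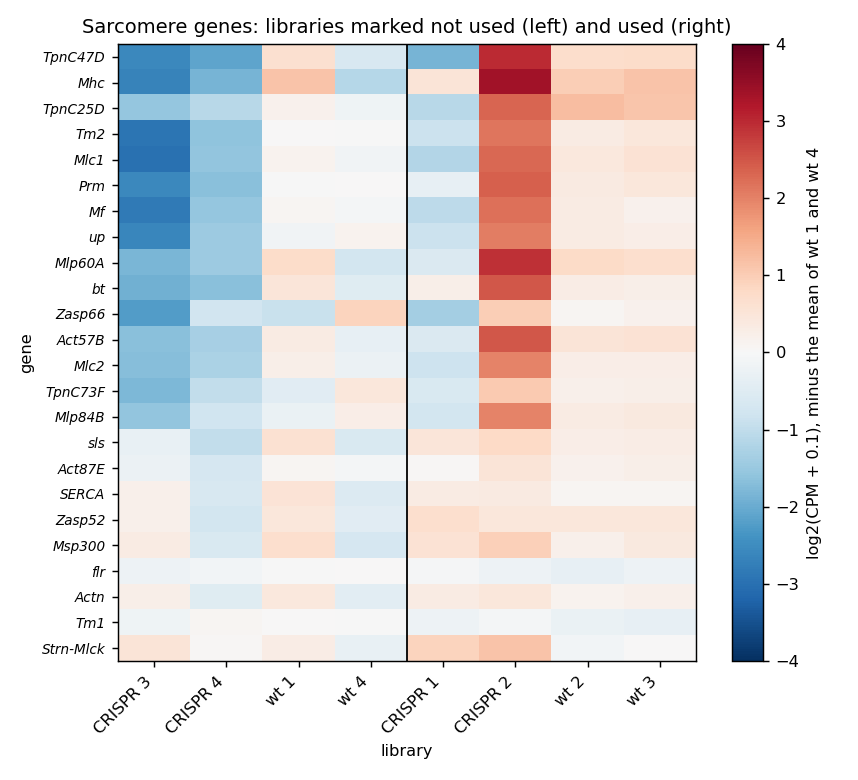
Sarcomere genes in each library, as log2(CPM + 0.1) minus the mean of wt 1 and wt 4, with blue for lower and red for higher. In the left block CRISPR 3 and CRISPR 4 are lower than wt 1 and wt 4 for most genes, and in the right block CRISPR 2 is high while CRISPR 1 is not.

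Genes of the AMPs themselves did not pass. In the AMP progenitor list 0 of 17 tested members were called and 0 had an unadjusted p under 0.05, with 7 higher and 10 lower and a median log2 change of -0.10, which was 0.026 without wt 1 and 0.054 without CRISPR 4. The members with the smallest p were the Notch target E(spl)mgamma-HLH (at 11.3 and 10.5 CPM in CRISPR 3 and CRISPR 4, against 16.3 and 13.5 CPM in wt 1 and wt 4) and the signalling factor gene Stat92E (at 245 and 288 CPM, against 380 and 316 CPM in the controls). Both stood in the opposite order without overlap in the used set. There E(spl)mgamma-HLH was at 14.2 and 16.2 CPM in CRISPR, against 10.2 and 11.2 CPM in wt. Stat92E was at 350 and 295 CPM, against 294 and 283 CPM. The difference between the sets had adjusted p-values of 0.342 and 0.606. Of 15 regulators of muscle identity 0 were called, and 2 were lower at an unadjusted p under 0.05, where all genes gave 1.63%. These were lms, a homeobox gene of muscle (at 0.474 and 0.437 CPM, against 0.873 and 3.28 CPM in the controls, and overlapping Mgat1), and nau, the fly homolog of MyoD (at 0.0431 and 0.161 CPM, against 0.274 and 0.931 CPM in the controls, and overlapping CG10300). In the used set lms was at 0.562 and 0.813 CPM in CRISPR, against 1.75 and 1.80 CPM in wt. All 4 CRISPR libraries thus lay below all 4 controls for lms, as for 1.2% of tested genes. For nau they did not, with CRISPR 1 at 0.437 CPM above wt 1. Myoblast fusion genes had 0 of 14 called and a median log2 change of -0.13 (0.014 without wt 1), and wing epithelium genes 0 of 38 and a median of 0.12 (-0.036 without CRISPR 3).

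Of the Hox genes and their partners 0 of 9 tested members passed in edgeR, and 1 had an unadjusted p under 0.05. This was abd-A, a Hox gene of the abdomen, at 0.0646 and 0.552 CPM in CRISPR 3 and CRISPR 4, against 1.20 and 2.37 CPM in wt 1 and wt 4 (log2 change -2.53, SE 0.95). Ubx was at 51.9 and 13.8 CPM against 38.2 and 45.9 CPM, and its sign turned to 0.30 without CRISPR 4. The cofactor gene hth was at 1717 and 1802 CPM against 1410 and 1440 CPM (log2 change 0.30). The log2 changes of exd, tsh, tio, Scr and lab lay between -0.19 and 0.48. Among the used libraries Ubx was lower in CRISPR without overlap, at 18.9 and 25.5 CPM against 36.0 and 37.3 CPM. Scr was also lower there without overlap (1.03 and 0.635 CPM against 3.84 and 2.85 CPM). Antp and exd were higher there without overlap, exd at 559 and 439 CPM against 416 and 386 CPM. The other members overlapped, and 0 of the 9 passed in that set.

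Genes of the ecdysone response varied among the controls. Of 26 tested members 0 were called, 19 had a higher fitted level in CRISPR, and the median log2 change was 0.39, or 0.16 without wt 1 and 1.17 without wt 4. ImpE2, an early ecdysone-induced gene, was at 4316 and 4623 CPM in CRISPR 3 and CRISPR 4, against 324 and 4067 CPM in wt 1 and wt 4. The nuclear receptor gene Hr4 was at 174 and 142 CPM against 2.52 and 133 CPM in wt 1 and wt 4, and the repressor gene Blimp-1 at 202 and 180 CPM against 1.10 and 148 CPM. Both genes were thus low in wt 1 and near the CRISPR levels in wt 4. The receptor gene EcR was at 164 and 168 CPM, against 311 and 174 CPM in wt 1 and wt 4. The difference in ecdysone response genes between wt 1 and the other 3 libraries sits in 1 of the 2 control libraries, and its part in the graded changes was not tested.

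Single libraries also set the extreme values of gut and salivary gland markers. The digestive protease gene Jon65Aiv was at 614 CPM in CRISPR 3 and 0.207 CPM in CRISPR 4, against 0.200 and 0.421 CPM in wt 1 and wt 4, and its fitted log2 change of 9.92 (adjusted p = 0.9999) became -0.59 without CRISPR 3. The gut gene mex1 was at 1.62 and 0.391 CPM against 0.0499 and 0.0665 CPM. Salivary gland markers summed to 16.4 and 68.6 CPM in CRISPR 3 and CRISPR 4, against 10.6 and 129 CPM in wt 1 and wt 4, so both libraries with the number 4 were the higher ones. The pigment gene y was at 0.495 and 0.391 CPM against 0.125 and 0.111 CPM, and the heat shock gene Hsp70Ba, whose near-identical copies make its count uncertain, at 9.24 and 74.6 CPM against 7.13 and 3.26 CPM. Neither passed the adjusted test here (adjusted p = 0.9999 for each). Both stood higher in all 4 CRISPR libraries than in all 4 controls, as did 1.71% of tested genes. In the used set y was at 5.75 and 1.07 CPM in CRISPR, against 0.0805 and 0.0659 CPM in wt (adjusted p = 0.0859). Hsp70Ba was at 133 and 54.2 CPM there, against 5.27 and 5.204 CPM (adjusted p = 0.0319). With wt 2 and wt 3 summed, 0 genes were called higher in CRISPR there. Over all 8 libraries the adjusted p was 0.445 for y and 0.228 for Hsp70Ba.

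The number of calls depended on which libraries and which test were used. DESeq2 called 57 genes, with 29 higher and 28 lower in CRISPR, and 8 of the 8 were among them. Without wt 4 edgeR called 727 genes and without wt 1 it called 150, and each of these sets held 8 of the 8. Without CRISPR 4 it called 12 genes with 7 of the 8, and without CRISPR 3 it called 7 genes with 6 of the 8, where CG6912 had an adjusted p of 0.0605. In these fits the library that was left alone in its genotype was assumed to vary like the other pair.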

How the data were processed

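For each wing disc library the authors deposited a table of unnormalised counts by gene. The submitters' processing notes list dm6, FastQC, Trimmomatic 0.36, STAR and DESeq2. Which program counted reads, with which strand setting and gene models, is not given in the sources used here. Tables list 17559 gene IDs, and 5 further rows of unassigned reads were left out of all totals and fits (of all reads in a table, 0.955% to 1.91% on no feature, 3.07% to 3.44% ambiguous and 2.22% to 4.40% not unique). Symbols and positions were matched for 17253 IDs from Ensembl release 115 of the same release 6 assembly.

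Counts of CRISPR 3, CRISPR 4, wt 1 and wt 4 went into edgeR 4.0.16 under R 4.3.3 (TMM, filterByExpr at a count of 10 and a total of 15, quasi-likelihood test, Benjamini-Hochberg adjustment over all genes tested, threshold 0.05). The same test was run among the used libraries, over all 8 with use status as a term, and on the difference in genotype effect between sets. Every adjusted p is from edgeR unless another tool is named. Alternatives used DESeq2 1.42.0, limma 3.58.1, other filters and scalings, each library left out, and wt 2 and wt 3 summed. The code was tested on simulated data, and figures were drawn with matplotlib 3.10.9. A count of 0 allows up to 0.0646 to 0.0748 CPM in these 4 libraries (3 counts), for counting error only.

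Named genes are the Hox list, every called or near on/off gene, the 10 graded genes with the smallest p in each direction (average log2 CPM of at least 1, no overlap between genotypes) and, from every list, the 2 members of smallest p. The text gives a selection of these. Genes that were called over all 8 libraries, lie next to an on/off gene or just short of its gap, and further list members and markers were named after their values were seen. The libraries, the 22 lists and the definitions were chosen with earlier results of these data known. Over all 8 libraries, deviations from the genotype mean correlated between same-numbered libraries (0.45, 0.15, 0.44 and 0.74 for numbers 1 to 4), so the numbers were taken to pair the libraries. The pairing is not exclusive: CRISPR 2 correlated more with wt 1 (0.29) and wt 3 (0.17) than with wt 2, and CRISPR 3 with wt 2 (0.45) as much as with wt 3. Their meaning is not stated in the labels, and among the 4 libraries compared only number 4 is shared.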

Additional observations from a re-analysis of the deposited data

Results flagged for a closer look

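For the 7 genes that were on in CRISPR 3 and CRISPR 4, CRISPR 1 stood far below the other 3 CRISPR libraries. The gap between CRISPR 1 and the nearest of them, as a share of the whole range of log2(CPM + 0.1) over the 4 CRISPR libraries, was 0.966 for Cyp4p2, 0.888 for Cyp4p1, 0.892 for ppk13, 0.895 for CG33509, 0.961 for Ir76a, 0.918 for CG15236 and 0.946 for CG6912. Each exceeds Dixon's 95% critical value for 4 samples. For groups not chosen by their levels, chance alone gives about 1 such case in 20. The 7 genes were chosen because CRISPR 3 and CRISPR 4 were both high, so that rate does not apply to them. They do not count as 7 separate cases either. Antdh and Antp had no such library in either genotype.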

How the results depend on the processing

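The count of 8 calls became 57 with DESeq2, 89 with no filter on low counts, 2 with the spread over all 8 libraries and 0 with that spread and the replicate block. Leaving out 1 library gave 7 to 727 calls, and limma-voom and RLE scaling each gave 7. The 8 near on/off genes became 13 with an 8-fold gap. Among the used libraries DESeq2 called 798 genes, against 264 in edgeR. With wt 2 and wt 3 summed as 1 library, an alternative chosen after seeing the data, edgeR called 42 genes there, 2 in place of 7 over all 8 libraries, 0 for the difference between the sets and 0 in the comparison of the 4 with the spread over all libraries. The lone summed library was assumed to vary like the others. The difference between the sets gave 0 calls with and without the replicate block. The log2 change of Antp was -0.42 to 0.28 with 1 library left out, 0.18 with the replicate block and 0.29 within number 4. With 1 library left out the log2 change turned sign for Ubx (-1.61 to 0.30), Scr (-1.10 to 0.52), tio (-0.77 to 0.29) and Jon65Aiv (-0.59 to 10.92), and with the replicate block for exd (0.046). The cause was not tested.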

Other observations

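The remaining gene lists held no call among CRISPR 3 and CRISPR 4 against wt 1 and wt 4. Ribosome biogenesis genes had 0 of 17 tested members called and a median log2 change of -0.18, which was 0.0097 without wt 1. Proliferation genes had 0 of 29 called and a median of -0.13, which was 0.028 without wt 1. DNA damage and apoptosis genes had 0 of 22 called and a median of 0.015, and immune genes 0 of 12 and 0.0085, and both medians took either sign as single libraries were left out. The immune gene Tep4 was higher in all 4 CRISPR libraries than in all 4 controls, as were 1.71% of tested genes. Hemocyte genes had 0 of 15 called and a median of 0.18 (-0.28 without CRISPR 3), trachea genes 0 of 11 and -0.21 (0.16 without wt 1), and nerve and glia genes 0 of 19 and -0.056 (0.036 without CRISPR 4). Of these 19, 2 were lower at an unadjusted p under 0.05 (onecut and Gs2), where all genes gave 1.63%. All 4 CRISPR libraries lay below all 4 controls for onecut, as for 1.2% of tested genes. Gs2 stood in the opposite order without overlap in the used set. Genes of sex determination had 0 of 11 called and a median of -0.12 (0.011 without wt 1), and heat shock genes 0 of 18 and -0.38 (-0.077 without CRISPR 3). Markers of other larval tissues rested on single libraries. Salivary gland markers had 0 of 9 called and a median of -0.67, which was 2.48 without wt 4, -2.63 without CRISPR 4 and 0.015 in limma-voom. Fat body markers had 0 of 8 called and a median of -0.25, which was 0.40 without wt 1 and -1.12 without CRISPR 3. Midgut markers had 0 of 5 called and a median of 0.48, which was -0.37 without CRISPR 3. Genes often carried on transgenes, such as y, had 0 of 9 called and a median of -0.53, which was -2.10 without CRISPR 4 and 0.011 without CRISPR 3. Of these 9, 2 were higher in CRISPR at an unadjusted p under 0.05 (Hsp70Ba and y), where all genes gave 1.27%. Both were higher in all 4 CRISPR libraries than in all 4 controls, as were 1.71% of tested genes.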
